A study of Homo sapiens with 12 samples.

Results

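The integrated stress response couples shortage of amino acids, heme or protein folding capacity to a program of gene expression. Here 47 genes of that program were examined in melanoma cells depleted of MITF, the transcription factor that specifies the melanocyte lineage. The members were taken by symbol. They comprise 7 kinases and phosphatase subunits that act on the translation factor eIF2, 7 transcription factors of the response, 5 further stress-response targets, 6 genes of serine and one-carbon synthesis, 4 genes of asparagine, proline and cysteine synthesis, and 18 cytosolic tRNA synthetases. All 47 were among the 12616 genes listed in the deposited table. RNA was measured by 3′ end sequencing (QuantSeq Forward) in 12 libraries of MeWo and SkMel28, both established lines from cutaneous melanoma, each engineered to express a short hairpin RNA against MITF when doxycycline (Dox) is added. Each line had 3 control libraries (0 µg/ml Dox) and 3 Dox libraries (1 µg/ml Dox), all collected after 8 days, and these 4 groups were compared. The labels give EMEM for MeWo and RPMI for SkMel28, whereas the study's methods name RPMI for its human melanoma lines other than HBL. If the media differed as labelled, line and medium cannot be told apart. No line without the hairpin received Dox, so that the effects of hairpin and drug cannot be told apart either. The sources used here do not say whether the 3 libraries of a group came from separate cultures, and p-values then measure only the spread between these samples.

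The response starts from 4 kinases. Heme-regulated EIF2AK1, the double-stranded RNA sensor EIF2AK2 (PKR), the endoplasmic reticulum sensor EIF2AK3 (PERK) and the amino acid sensor EIF2AK4 (GCN2), phosphorylate eIF2 on its alpha subunit, encoded by EIF2S1. Phosphorylated eIF2 lowers protein synthesis in general but raises translation of ATF4 mRNA. ATF4 then pairs with C/EBP-family and other factors on DNA and activates genes for amino acid synthesis and transport, aminoacyl-tRNA synthetases, and further regulators such as DDIT3 (CHOP) and TRIB3. Because ATF4 is controlled to a large part by translation, its mRNA does not report its protein, which was not measured here. In melanoma, ATF4 and the response around it are known for a link with low MITF and an invasive state.

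The DNA core recognised by ATF4 with C/EBP factors is the element through which ATF4 is known to act. It was found in the promoters of 4 members whose mRNA was called changed in either line, and 2 of these promoters are shown. The other 2 were those of ATF3, called higher in SkMel28, and of AARS, called lower in MeWo. They held the core at positions -191 and -187. The call of CHAC1 was lost under several alternatives, given with its values. The sequences are the 250 bases before the annotated start of transcription, from RefSeq on GRCh38.p14, written 5′ to 3′ on the gene's strand. They lie at chr15:40953221-40953470 on the + strand for CHAC1, a glutathione-degrading enzyme, and at chr7:97872409-97872658 on the - strand for ASNS, asparagine synthetase. Capitals mark the match to TGATGNAA, where N is any base, found on either strand, so that TTGCATCA is a match read from the other strand.
CHAC1: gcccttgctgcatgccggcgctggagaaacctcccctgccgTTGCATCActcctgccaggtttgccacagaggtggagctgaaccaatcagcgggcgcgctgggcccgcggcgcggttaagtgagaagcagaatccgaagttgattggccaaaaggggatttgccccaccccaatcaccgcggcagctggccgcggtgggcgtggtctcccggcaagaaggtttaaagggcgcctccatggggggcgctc
ASNS: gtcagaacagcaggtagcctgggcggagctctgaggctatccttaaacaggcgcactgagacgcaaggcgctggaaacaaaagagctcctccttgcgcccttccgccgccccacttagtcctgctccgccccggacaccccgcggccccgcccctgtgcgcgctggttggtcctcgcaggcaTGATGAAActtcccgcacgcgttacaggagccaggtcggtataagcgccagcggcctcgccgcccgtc
Relative to the start, the match lay at position -209 in CHAC1 and -68 in ASNS, and read TTGCATCA and TGATGAAA. A window of 250 bases before to 50 after the start was available for 37 of the 47 members, and 12 of them (32.4%) held TGATGNAA. In comparison 254 of 9495 tested genes with a window (2.68%) and 3.62% of all 35116 windows held it. The synthetases accounted for 7 of these 12 members, out of 14 synthetases with a window. The members were chosen as genes of this response, so their share beside that of all genes is no result of the Dox comparison. TGATGNAA was found in 4 of the 16 members called with Dox in either line. It was found in 8 of the 31 called in neither, members without a window being counted as lacking it. The E-box core CACGTG, bound by MITF and its relatives, was present in 4 of 37 members (10.8%), namely EIF2AK2, ATF4, ALDH18A1 and IARS, and in 13.1% of tested genes. IARS alone held both, at -13 and -186, which did not overlap. A match describes letters in this window and is not evidence of binding.

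Read totals ran from 2568187 to 3714608 per library, with 5.69 to 8.55% of reads from added spike-in RNAs. Values are reads normalised to the library's effective size, on the CPM scale. A single read is worth 0.278 to 0.389, and a group in which no library exceeds 3 reads (a value of 0.835 to 1.17) is treated as being at the floor. Changes are differences of log2(value + 1), which understate those of low genes, with the standard error (SE) and Benjamini-Hochberg adjusted p from limma over all 12616 genes, and called means an adjusted p under 0.05. MITF, the hairpin's target, checked the labels: it stood at 657, 663 and 708 in MeWo control and at 451, 354 and 371 in MeWo Dox, a fall of 0.79 ± 0.11 (log2, SE; adjusted p = 6.49e-05). In SkMel28 it stood at 861, 739 and 792 in control and at 575, 578 and 552 with Dox, a fall of 0.49 ± 0.11 (adjusted p = 0.00705). All 8 melanocyte-lineage markers were listed, with summed values of 13080 to 13280 per library without Dox and 6706 to 8414 with Dox for MeWo, and 11490 to 12840 without and 7657 to 8001 with Dox for SkMel28, so that the Dox libraries were the lower in both lines. With Dox, 2 of the 8 rose and 6 fell in MeWo, and 1 rose and 3 fell in SkMel28. Of 6 markers each, 2 for fibroblasts (DCN and LUM), 1 for keratinocytes (KRT10) and 1 for immune cells (CD68) were listed, and PTPRC, CD3E, COL1A1 and KRT5 were not among the listed genes. CD68 fell in SkMel28 from 78.2, 101 and 80.8 to 19.6, 18.7 and 22.97 (-2.03 ± 0.23, adjusted p = 1.71e-05) and LUM in MeWo from 40.9, 46.6 and 45.7 to 16.3, 8.34 and 13.2 (-1.78 ± 0.23, adjusted p = 3.06e-05), while DCN and KRT10 were called in neither line. The part of these marker changes in the results for the members was not tested. These are bulk libraries, in which fewer cells expressing a gene and less of its RNA per cell cannot be told apart.

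MeWo Dox replicate 1 stood apart. Across genes it correlated with replicates 2 and 3 at 0.960 and 0.969, against 0.976 between those and 0.979 to 0.985 within the other groups. Its MITF value was the highest of the 3 MeWo Dox libraries. Over the 47 members its log2 values differed from the mean of the MeWo controls by 0.36 on average, against 0.575 in replicate 2 and 0.484 in replicate 3. In SkMel28 the 3 Dox libraries lay close together on this measure, at 0.302 to 0.346. Over all genes it was 0.374, 0.544 and 0.503 in MeWo Dox replicates 1, 2 and 3, and 0.365 to 0.407 in SkMel28. The shift was thus not particular to the members. The count of members called in MeWo, and most MeWo changes of named members, are therefore given with and without MeWo Dox replicate 1.

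In MeWo, 11 of the 47 members (23.4%) were called with Dox, beside 16.7% of all genes. The 6 that rose (8.58% of all genes did) were ATF5, CHAC1, GDF15, ASNS, PYCR1 and WARS, and the 5 that fell (8.12% of all genes) were EIF2AK1, CEBPB, PHGDH, AARS and DARS. The median change of the 47 members was 0.06 on the log2 scale and that of all genes 0. Without MeWo Dox replicate 1 the count was 19, with 11 higher and 8 lower, beside 31% of all genes, and 10 of the 11 were among them. In SkMel28, 8 members (17.0%) were called, beside 10.9% of all genes. ATF4, ATF3, ATF5, ASNS and EPRS rose (5 members, with 5.88% of all genes higher), and TRIB3, GDF15 and ALDH1L2 fell (3 members, with 5.04% lower). The median of the 47 was 0.03. Scaled to the spike-ins in place of total RNA, the MeWo count was 15, with 13 higher and 2 lower (19.6% of all genes called), and the SkMel28 count 4, with 1 higher and 3 lower (7.36% of all genes). That scaling moved the median of all genes by 0.22 in MeWo and by -0.08 in SkMel28. With each line fitted alone, in place of a spread shared by all 12 libraries, 3 members were called in MeWo, namely CEBPB, GDF15 and WARS, and 11 in SkMel28, among them CEBPB, PHGDH and ALDH18A1, which were not called in SkMel28 in the shared fit. Over all 12616 genes those fits called 813 in MeWo and 1558 in SkMel28, against 2107 and 1378 in the shared fit.

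**Figure D1:**
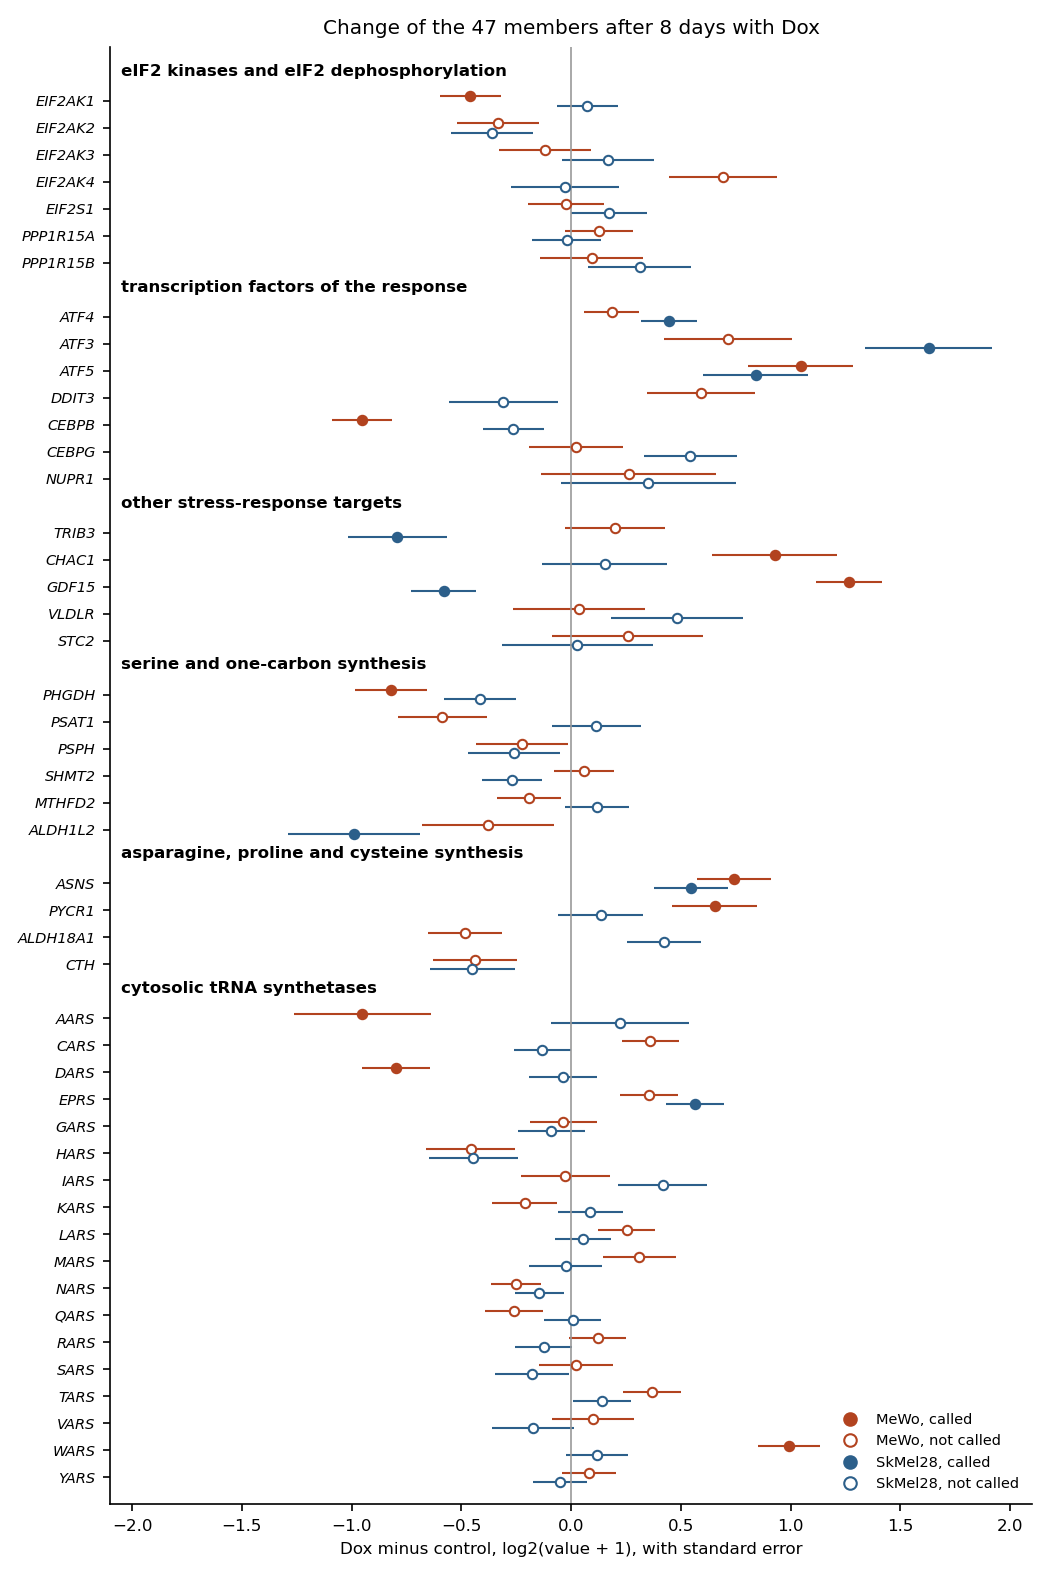
Difference between Dox and control, in log2(value + 1), for each of the 47 members in MeWo (red) and SkMel28 (blue), grouped by role. Points are limma estimates from 3 libraries a group, bars are standard errors and filled points are called at an adjusted p under 0.05. Members lie on either side of 0 in both lines, and GDF15 is filled on opposite sides.

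The transcription factors at the centre of the response differed in how they moved. ATF4, on chromosome 22 (39519695 to 39522683, + strand, GRCh38), stood at 329, 352 and 349 in MeWo control and at 403, 426 and 346 with Dox. The MeWo groups overlapped, and the change was 0.18 ± 0.13 (adjusted p = 0.35; 0.16, adjusted p = 0.36, without MeWo Dox replicate 1). In SkMel28 ATF4 rose from 339, 275 and 326 to 392, 387 and 507, with every Dox library above every control library. The rise was 0.44 ± 0.13 (adjusted p = 0.0309), and it lost its call without SkMel28 control replicate 2 or 3 or Dox replicate 3 (adjusted p = 0.0675 to 0.146, change 0.32 to 0.48) and when each line was fitted alone. With spike-in scaling the rise was 0.35 and was not called either (adjusted p = 0.29). The difference between the lines' changes did not pass the test (-0.26 ± 0.18, adjusted p = 0.381).

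ATF5, a relative of ATF4 that is likewise favoured by translation under stress, rose in both lines. It went from 8.93, 5.44 and 6.15 to 11.5, 19.7 and 14.6 in MeWo and from 10.0, 9.52 and 10.4 to 19.9, 14.7 and 22.1 in SkMel28, with no overlap in either line. The rises were 1.05 ± 0.24 (adjusted p = 0.00605; 1.22 without MeWo Dox replicate 1) and 0.84 ± 0.24 (adjusted p = 0.0316). In SkMel28 the call was lost without any single control replicate or without Dox replicate 1 or 3 (adjusted p = 0.0788 to 0.12). Spike-in scaling lost that call too (0.75, adjusted p = 0.0867). ATF5 overlaps NUP62 on the other strand, and the strand used for counting is not given in the sources used here.

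ATF3, an immediate stress factor that represses as well as activates, was at the floor in SkMel28 control, with 0.835, 0.317 and 0.766, and reached 3.56, 4.01 and 4.53 with Dox. Against 3 reads per control library this was at least 4.12-fold higher (adjusted p = 0.00119), from 15 reads at most in a Dox library. In MeWo it stood at 2.30, 3.11 and 1.94 in control and at 5.75, 6.06 and 2.71 with Dox, a difference of 0.72 ± 0.29 (adjusted p = 0.103). ATF3 was called there without MeWo Dox replicate 3 (1.01, adjusted p = 0.0343) but not without replicate 1 (0.58, adjusted p = 0.195).

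CEBPB, a C/EBP factor that can pair with ATF4, moved the other way. It fell in MeWo from 177, 169.8 and 189.8 to 119.7, 78.1 and 83.0, by 0.95 ± 0.14 (adjusted p = 0.000112), and by 1.14 without MeWo Dox replicate 1. In SkMel28 every Dox library (144, 145 and 138) also lay below every control library (171, 163 and 179), but the change of -0.26 ± 0.14 did not pass the test (adjusted p = 0.265; 0.044 with that line fitted alone). The remaining factors, DDIT3, which promotes death of stressed cells, CEBPG, a partner of ATF4, and NUPR1, a chromatin-associated stress protein, were called in neither line (from -0.31 for DDIT3 in SkMel28 to 0.59 for DDIT3 in MeWo). DDIT3 stood at 30.2, 31.5 and 21.1 in MeWo control and at 29.7, 53.8 and 44.4 with Dox, and NUPR1 at 16.99, 12.04 and 15.2 and at 6.38, 44.3 and 18.6, so that Dox replicate 1 was the lowest of its group for both. Without replicate 1, DDIT3 (0.82, adjusted p = 0.0124) and NUPR1 (0.93, adjusted p = 0.00674) were called higher in MeWo. DDIT3 overlaps MARS and MBD6 on the other strand.

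Upstream of ATF4, 1 of the 7 genes for eIF2 kinases, for EIF2S1 and for the phosphatase subunits PPP1R15A (GADD34) and PPP1R15B (CReP), which reverse eIF2 phosphorylation, was called by limma, in MeWo. This was 14.3% of them, beside 16.7% of all genes. EIF2AK1, the kinase that responds to heme shortage, fell in MeWo from 97.9, 105 and 95.5 to 85.5, 68.98 and 63.3, by 0.46 ± 0.14 (adjusted p = 0.0332). The groups did not overlap, and the fall was 0.58 without MeWo Dox replicate 1, but the call was lost without any other single MeWo library (adjusted p = 0.0727 to 0.143) and with spike-in scaling (-0.19, adjusted p = 0.56). EIF2AK1 overlaps AIMP2 on the other strand. EIF2AK4 (GCN2), the sensor of uncharged tRNA, stood at 46.9, 47.4 and 40.8 in MeWo control and at 43.1, 99.3 and 91.5 with Dox. Replicate 1 lay among the controls and replicates 2 and 3 well above them (0.69 ± 0.24, adjusted p = 0.0626, and 1.07, adjusted p = 0.000109, without replicate 1). With all libraries it was called by edgeR (adjusted p = 0.027) and DESeq2 (adjusted p = 0.0188). In SkMel28, where limma called 10.9% of all genes, 0 of the 7 were called by limma, edgeR or DESeq2. There 0 had an unadjusted p under 0.05, and changes ranged from -0.36 to 0.31. Phosphorylation of eIF2 was not measured.

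Among further targets, GDF15 gave the largest log2 change of the 47 members in MeWo and was called in opposite directions in the lines. It encodes a secreted stress cytokine that suppresses appetite, and lies on chromosome 19 (18374731 to 18389176, + strand, GRCh38). In MeWo it rose from 324, 330.2 and 384 to 644, 880.4 and 1012, with every Dox library above every control. The rise was 1.27 ± 0.15 (adjusted p = 1.19e-05; 1.45 without MeWo Dox replicate 1). In SkMel28 it fell from 354, 456 and 375 to 269, 238 and 282, again without overlap, by 0.58 ± 0.15 (adjusted p = 0.0172). The SkMel28 call was lost without control replicate 2 or Dox replicate 1 or 2 (adjusted p = 0.0518 to 0.0971), while the MeWo call held in all 22 alternatives. The difference between the lines' changes was 1.85 ± 0.21 (adjusted p = 6.95e-05), and ranged from 1.70 to 2.22 over its 21 alternatives, all called.

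CHAC1, which breaks down glutathione and whose promoter is printed above, rose in MeWo from 5.18, 7.77 and 8.74 to 20.4, 16.3 and 8.81. The rise was 0.93 ± 0.28 (adjusted p = 0.0332), and Dox replicate 3 was barely above the highest control. It was 0.69 without MeWo Dox replicate 1, and the call was lost without that library, MeWo control replicate 1 or 2, or MeWo Dox replicate 2 (adjusted p = 0.0707 to 0.134). In SkMel28 the groups overlapped (11.7, 10.2 and 6.90 against 10.1, 10.4 and 11.2).

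TRIB3, a pseudokinase that binds ATF4 and dampens its activity, fell in SkMel28 from 40.6, 39.03 and 42.9 to 23.4, 24.4 and 21.8. Both groups were tight and did not overlap, and the fall was 0.79 ± 0.23 (adjusted p = 0.0327). The call was lost whichever SkMel28 library was left out (adjusted p = 0.0681 to 0.114), with changes of -0.83 to -0.75. In MeWo, TRIB3 stood at 43.8, 31.1 and 45.02 in control and at 30.00, 70.1 and 44.4 with Dox, and the groups overlapped (0.20 ± 0.23, adjusted p = 0.599). Its MeWo change was 0.49 (adjusted p = 0.0563) without MeWo Dox replicate 1. The difference between lines was 0.99 ± 0.32, adjusted p = 0.068, and 1.28, adjusted p = 0.00117, without MeWo Dox replicate 1. VLDLR, a lipoprotein receptor, and STC2, a secreted glycoprotein, were called in neither line, and STC2 was at the floor throughout SkMel28.

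ASNS, which makes asparagine from aspartate and glutamine, rose in both lines. In MeWo it went from 46.6, 39.2 and 50.2 to 60.01, 97.03 and 75.9, a rise of 0.74 ± 0.17 (adjusted p = 0.00535; 0.91 without MeWo Dox replicate 1). In SkMel28 it went from 30.1, 37.4 and 31.8 to 50.2, 46.1 and 49.6, a rise of 0.55 ± 0.17 (adjusted p = 0.045). All Dox libraries lay above all controls in each line. The SkMel28 call was lost without any single SkMel28 library other than control replicate 2, without any single MeWo control and without MeWo Dox replicate 3 (adjusted p = 0.0509 to 0.154), with changes of 0.48 to 0.58. That call was also lost in DESeq2 (adjusted p = 0.0551) and with spike-in scaling (0.45, adjusted p = 0.196). ATF5 and ASNS were the 2 members of 47 called higher in both lines, beside 1.91% of all genes.

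The proline genes did not move together. PYCR1, the last enzyme of proline synthesis in mitochondria, rose in MeWo from 67.1, 55.6 and 51.8 to 63.2, 132 and 91.8, by 0.65 ± 0.19 (adjusted p = 0.0273). Dox replicate 1 lay among the controls, and without it the rise was 0.92. The call was lost without MeWo control replicate 2 or 3 or MeWo Dox replicate 2 or 3 (adjusted p = 0.0724 to 0.136). In SkMel28 the groups overlapped (157, 186 and 186 against 181, 186 and 212, 0.13 ± 0.19, adjusted p = 0.744). ALDH18A1, which makes the precursor of proline, was called in neither line with all libraries. It stood at 50.4, 55.95 and 45.02 in MeWo control and at 48.5, 28.8 and 32.5 with Dox (-0.48 ± 0.17, adjusted p = 0.0602), and at 53.5, 45.7 and 51.4 and 69.8, 66.5 and 66.5 in SkMel28 (0.43 ± 0.17, adjusted p = 0.127; 0.0246 with that line fitted alone). Without MeWo Dox replicate 1 it was called lower in MeWo (-0.70, adjusted p = 0.00071) and higher in SkMel28 (0.43, adjusted p = 0.022). CTH, which makes cysteine from cystathionine, was called in neither line (-0.44 ± 0.19, adjusted p = 0.129, in MeWo and -0.45 ± 0.19, adjusted p = 0.157, in SkMel28).

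**Figure D2:**
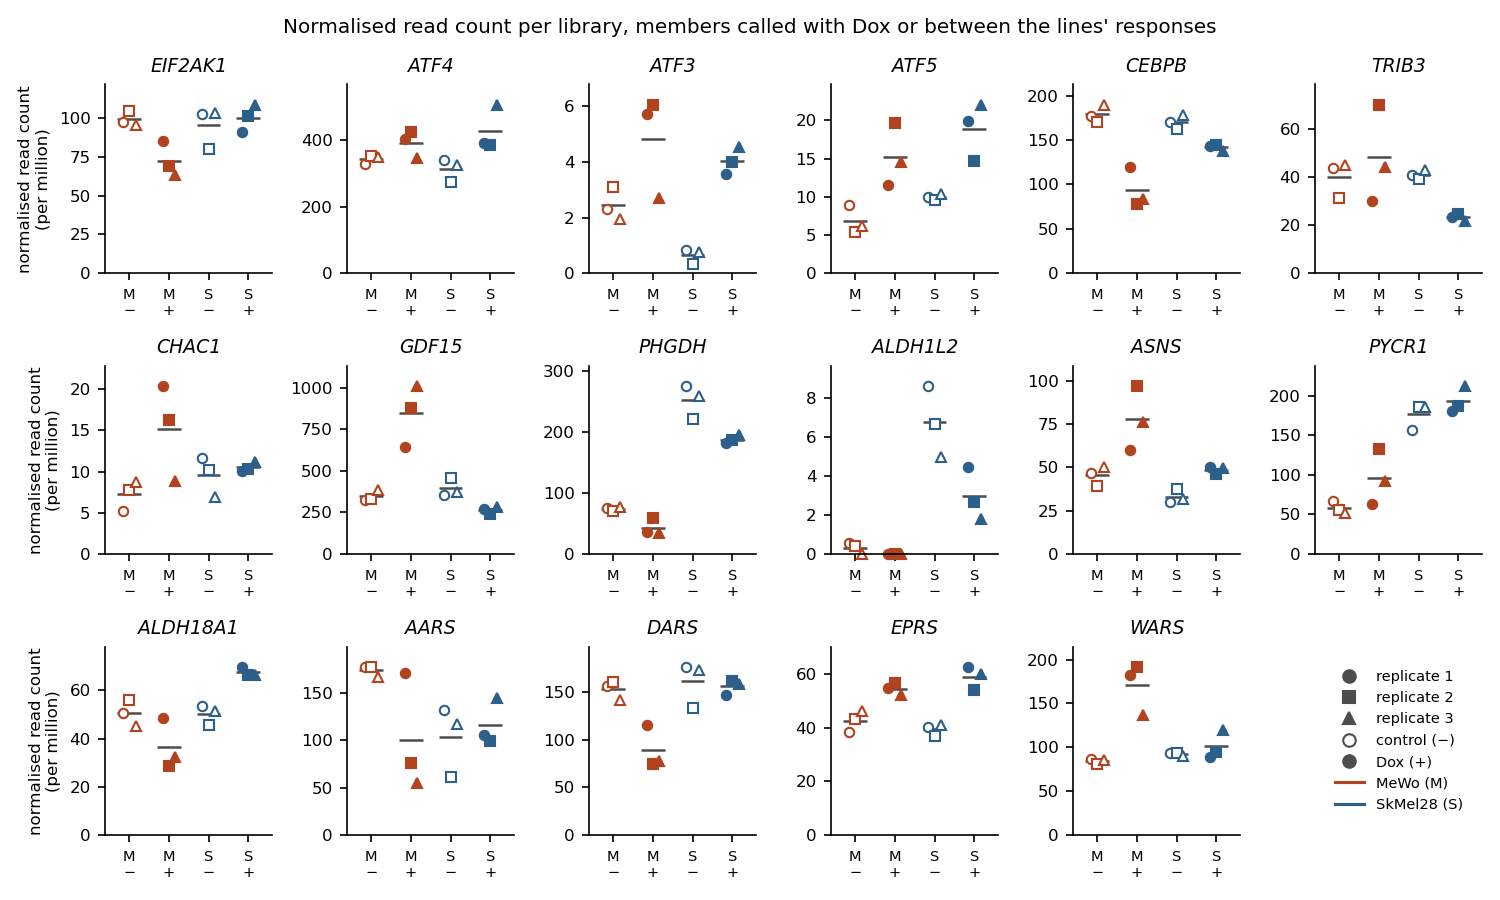
Normalised read count in every library for the 16 members called with Dox in either line and for ALDH18A1, whose changes differed between the lines. M is MeWo and S is SkMel28, - and + (open and filled symbols) are control and Dox, marker shapes are replicates and lines are means of 3 libraries. GDF15 is higher with Dox in MeWo and lower in SkMel28, and for AARS the first MeWo Dox library (171) lies among the controls.

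Of the 6 genes of serine and one-carbon synthesis, 1 (16.7%) was called in each line, lower both times. Of all genes 16.7% were called in MeWo and 10.9% in SkMel28. PHGDH, PSAT1 and PSPH make serine from a glycolytic intermediate, and SHMT2, MTHFD2 and ALDH1L2 handle its carbon in the mitochondrial folate pool. PHGDH, the first enzyme, on chromosome 1 (119648411 to 119744218, + strand, GRCh38), fell in MeWo from 76.02, 69.9 and 77.1 to 36.1, 58.8 and 33.9, by 0.82 ± 0.16 (adjusted p = 0.00214; 0.72 without MeWo Dox replicate 1). In SkMel28 its groups did not overlap either (276, 220.5 and 259 against 181, 187 and 195), and the change was -0.42 ± 0.16, adjusted p = 0.126 (adjusted p = 0.0333 with that line fitted alone). Without MeWo Dox replicate 2 it was called in SkMel28 (adjusted p = 0.0202), and so was the difference between lines (-0.65, adjusted p = 0.0347).

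PSAT1, the transaminase of that pathway, stood at 66.8, 63.3 and 72.2 in MeWo control and at 70.9, 39.4 and 31.5 with Dox. The first Dox library lay among the controls and the other 2 below them (-0.59 ± 0.20, adjusted p = 0.057, and -0.92, adjusted p = 2.22e-05, without replicate 1). In SkMel28 it overlapped (134, 109.8 and 119.6 against 138, 125 and 129.6). ALDH1L2 fell in SkMel28 from 8.63, 6.66 and 4.98 to 4.45, 2.67 and 1.81, by 0.99 ± 0.30 (adjusted p = 0.0429). It rested on at most 31 reads in a library, and was called neither by edgeR (adjusted p = 0.0757) nor by DESeq2 (adjusted p = 0.173), nor without SkMel28 control replicate 1 or 2, SkMel28 Dox replicate 2 or 3, or MeWo control replicate 1 or 2 (adjusted p = 0.0504 to 0.165). In MeWo it was at the floor in both groups. PSPH, SHMT2 and MTHFD2 were called in neither line, at -0.27 to 0.12.

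Of the 18 cytosolic tRNA synthetases, which charge tRNAs with amino acids, 3 (16.7%) were called in MeWo and 1 (5.56%) in SkMel28, beside 16.7% and 10.9% of all genes, with median changes of 0.05 and -0.03. WARS, for tryptophan, which is also known as an interferon-induced gene, rose in MeWo from 86.1, 81.2 and 85.5 to 182, 192 and 137. The controls were tight, every Dox library was higher, and the rise of 0.99 ± 0.14 (adjusted p = 9.24e-05; 0.94 without MeWo Dox replicate 1) was called in all 22 alternatives. In SkMel28, WARS stood at 93.3, 93.3 and 90.05 in control and at 88.5, 94.2 and 120.0 with Dox (0.12 ± 0.14, adjusted p = 0.691). WARS lies on chromosome 14 (100333790 to 100376805, - strand, GRCh38) and overlaps WDR25 on the other strand.

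DARS and AARS fell in MeWo. DARS, for aspartate, went from 157, 161 and 142 to 115, 75.04 and 77.6, by 0.80 ± 0.15 (adjusted p = 0.00162), by 0.99 without MeWo Dox replicate 1, and with spike-in scaling the change was -0.53 (adjusted p = 0.066). In SkMel28 its groups overlapped (177, 134 and 174 against 148, 162 and 159). AARS, for alanine, went from 177, 178 and 167 to 171, 76.2 and 54.5, by 0.95 ± 0.31 (adjusted p = 0.0464). Replicate 1 lay among the controls and the other 2 far under them, and without it the fall was 1.42 (adjusted p = 0.000115). The call was lost without any other single MeWo library, control replicate 3 of SkMel28 or any Dox library of SkMel28 (adjusted p = 0.0518 to 0.236), and in edgeR (adjusted p = 0.0827) and DESeq2 (adjusted p = 0.222). AARS was uneven among SkMel28 controls too, at 132, 61.2 and 117, against 105, 99.6 and 144 with Dox. It overlaps DDX19B on the other strand.

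EPRS, the joint glutamyl- and prolyl-tRNA synthetase, rose in SkMel28 from 40.4, 36.8 and 41.00 to 62.6, 53.8 and 59.8, by 0.56 ± 0.13 (adjusted p = 0.00926). The call was lost without SkMel28 Dox replicate 1 (adjusted p = 0.0559) and with spike-in scaling (0.47, adjusted p = 0.179). The MeWo groups, 38.3, 43.1 and 45.99 against 54.6, 56.5 and 52.2, did not overlap either, and the change was 0.35 ± 0.13, adjusted p = 0.0762. The difference between lines did not pass the test (-0.21 ± 0.19, adjusted p = 0.503). The other 14 synthetases were called in neither line by limma, from -0.46 for HARS to 0.37 for TARS in MeWo and from -0.45 for HARS to 0.42 for IARS in SkMel28, and DESeq2 called TARS in MeWo (adjusted p = 0.0492). Without MeWo Dox replicate 1 the MeWo count was 7 of 18, beside 31% of all genes, with CARS (0.35), MARS (0.51) and TARS (0.48) called higher and NARS (-0.30) lower.

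**Figure D3:**
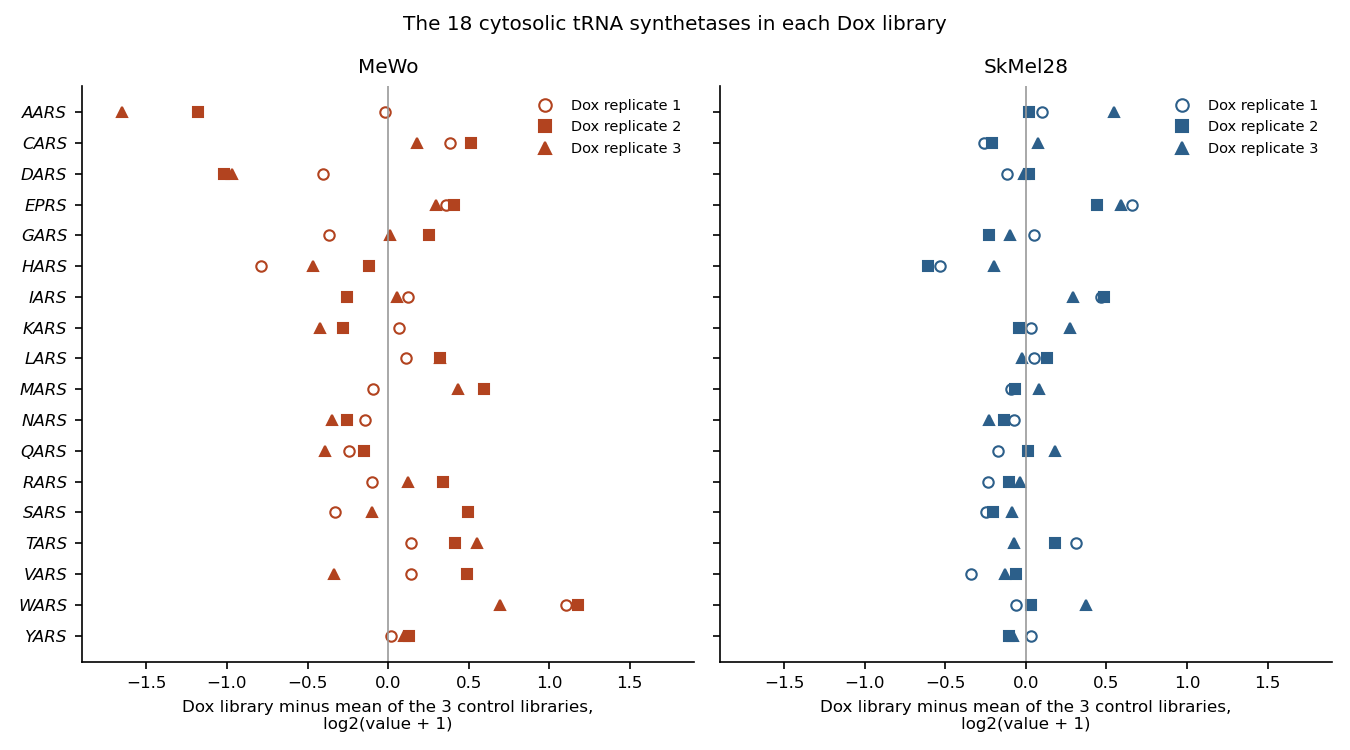
Log2(value + 1) of each Dox library minus the mean of the 3 control libraries of its line, for the 18 cytosolic tRNA synthetases in MeWo and SkMel28. Marker shapes are the 3 Dox libraries, with replicate 1 open. In MeWo all 3 libraries lie above 0 for WARS and below 0 for DARS, while for AARS replicate 1 is close to 0 and the other 2 are far below it.

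Whether the lines responded alike was asked of the difference of their changes, MeWo minus SkMel28. It was called for 5 of the 47 members (10.6%), beside 7.09% of all genes. GDF15 and WARS (0.88 ± 0.20, adjusted p = 0.0142) were on the higher side, with 3.71% of all genes. CEBPB (-0.69 ± 0.20, adjusted p = 0.0415), ALDH18A1 (-0.91 ± 0.24, adjusted p = 0.0301) and DARS (-0.76 ± 0.22, adjusted p = 0.0444) were on the lower side, with 3.38% of all genes. CEBPB and DARS lost the call when any single library other than MeWo Dox replicate 1 was left out (adjusted p = 0.0598 to 0.105 and 0.0513 to 0.113). Both also lost it in edgeR (adjusted p = 0.0531 and 0.055). ALDH18A1 lost it without MeWo control replicate 1 or 2, MeWo Dox replicate 2 or 3, control replicate 2 or 3 of SkMel28 or any Dox library of SkMel28 (adjusted p = 0.0509 to 0.0901). Without MeWo Dox replicate 1 the count was 13, beside 24.7% of all genes, with EIF2AK4, DDIT3, TRIB3, PYCR1 and MARS added on the higher side and EIF2AK1, PSAT1 and AARS on the lower. With spike-in scaling 7 were called, all on the higher side. Under that scaling 1518 of all 12616 genes were called, 1359 of them on the higher side, and the median difference of all genes was 0.297.

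Without Dox the lines already differed. Of the 47 members, 19 (40.4%) were called between SkMel28 control and MeWo control, a smaller share than the 51.4% of all genes. In SkMel28, 12 were higher (26.6% of all genes) and 7 lower (24.8%), and the members' median difference was 0.04. PHGDH stood at 276, 220.5 and 259 in SkMel28 against 76.02, 69.9 and 77.1 in MeWo, a difference of 1.74 ± 0.16, adjusted p = 1.23e-07. PSAT1 stood at 134, 109.8 and 119.6 against 66.8, 63.3 and 72.2 (0.83 ± 0.20, adjusted p = 0.00241), and PYCR1 at 157, 186 and 186 against 67.1, 55.6 and 51.8 (1.59 ± 0.19, adjusted p = 2.6e-06). ALDH1L2, at the floor in MeWo control, was at least 6.76-fold higher in SkMel28 (adjusted p = 1.79e-06). SHMT2 went the other way, with 88.3, 78.7 and 81.6 in SkMel28 against 130.4, 125 and 116 in MeWo (-0.57 ± 0.14, adjusted p = 0.002). In all, 4 of the 6 serine and one-carbon genes (66.7%, beside 51.4% of all genes) were called, 3 higher in SkMel28.

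NUPR1 was higher in SkMel28 control, with 65.4, 86.95 and 84.7 against 16.99, 12.04 and 15.2 in MeWo (2.35 ± 0.40, adjusted p = 9.91e-05), and so was CTH, with 27.3, 26.97 and 27.97 against 13.8, 12.8 and 11.98 (1.04 ± 0.19, adjusted p = 0.000223). Among the 18 synthetases, 5 were higher in SkMel28 and 3 lower (44.4% called, beside 51.4% of all genes). CARS, for cysteine, stood at 165, 158 and 174 against 63.6, 67.6 and 75.8 (1.25 ± 0.13, adjusted p = 3.4e-07), and IARS, for isoleucine, at 37.9, 47.6 and 25.3 against 19.00, 22.1 and 16.8 (0.86 ± 0.20, adjusted p = 0.00188). ATF3 and STC2 were at the floor in SkMel28 control and lower there, by at least 2.5-fold for ATF3 (adjusted p = 0.00507) and at least 1.73-fold for STC2 (adjusted p = 0.0124, and 0.0803 without MeWo control replicate 1). These bounds hold for group means only. STC2 stood at 2.88, 1.55 and 0.648 in MeWo control, so that replicate 3 itself lay below the value of 3 reads. ATF4 itself did not pass the test (-0.14 ± 0.13, adjusted p = 0.386).

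**Figure D4:**
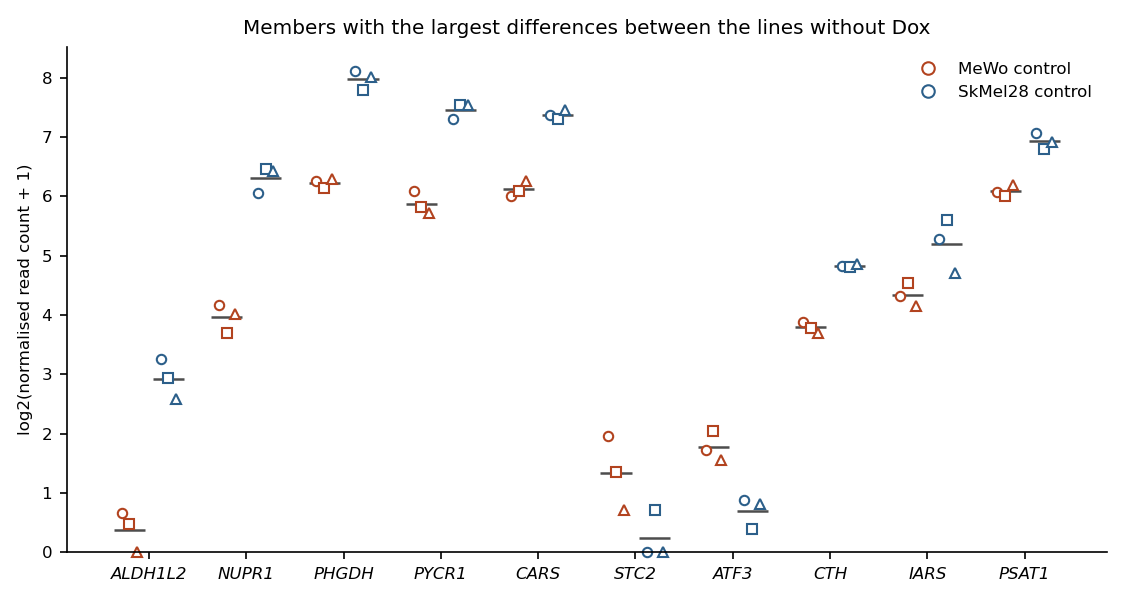
Log2(normalised read count + 1) in the 3 control libraries of MeWo (red) and of SkMel28 (blue) for the 10 members with the largest differences without Dox. Marker shapes are replicates and lines are means. SkMel28 lies above MeWo for 8 of the 10 and below it for ATF3 and STC2.

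Other genes of the pathway were taken from lists written by hand and described by the same test. Of 14 genes of the unfolded protein response, 7 rose and 0 fell in MeWo, with a median of 0.47. There 8.58% of all genes rose and 8.12% fell. EIF2AK3 is 1 of several sensors of this response of the endoplasmic reticulum, and the list is not limited to its arm. HSP90B1, a chaperone of that compartment, went from 326, 322 and 347 to 579, 711 and 898 (1.11 ± 0.16, adjusted p = 9.73e-05), CALR, a calcium-binding chaperone, rose by 0.90 ± 0.18 (adjusted p = 0.00239), and XBP1, a transcription factor of that response, by 0.82 ± 0.19 (adjusted p = 0.00621). In SkMel28, 1 of the 14 (7.14%, beside 10.9% of all genes) was called, SDF2L1 (-0.64 ± 0.18, adjusted p = 0.0267), with a median of 0.10. The difference between lines was called for 5 of the 14 (35.7%), all on the higher side in MeWo, beside 3.71% of all genes on that side.

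Of 16 further targets of the stress response, 2 rose and 4 fell in MeWo, where 8.58% of all genes rose and 8.12% fell. In SkMel28, 2 rose and 3 fell, where 5.88% of all genes rose and 5.04% fell. DDIT4 (REDD1), an inhibitor of mTORC1, rose in MeWo from 27.4, 32.2 and 28.2 to 79.2, 171 and 143 (2.06 ± 0.22, adjusted p = 3.45e-06). In SkMel28 it stood at 77.4, 118 and 93.9 in control and 73.3, 80.5 and 74.3 with Dox (-0.32 ± 0.22, adjusted p = 0.406), and the changes differed by 2.38 ± 0.30, adjusted p = 0.000182. SLC7A1, a transporter of cationic amino acids, fell in both lines, by 1.14 ± 0.13 (adjusted p = 7.49e-06) in MeWo and 0.82 ± 0.13 (adjusted p = 0.000377) in SkMel28. SLC38A2, a transporter of small neutral amino acids, rose in SkMel28 from 40.6, 30.1 and 40.2 to 70.4, 76.5 and 72.8 (0.98 ± 0.16, adjusted p = 0.00049) and was not called in MeWo (-0.17 ± 0.16, adjusted p = 0.511).

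Of 15 genes of one-carbon, serine and proline metabolism outside the members, 2 rose and 1 fell (MTHFD1, -0.52 ± 0.16, adjusted p = 0.0318) in MeWo and 1 rose in SkMel28, shares of 20.0% and 6.67% beside 16.7% and 10.9% of all genes. GLDC, which cleaves glycine in mitochondria, rose in SkMel28 from 2.51, 6.03 and 2.30 to 22.3, 27.1 and 9.37 (2.13 ± 0.37, adjusted p = 0.000909; adjusted p = 0.053 with a pseudocount of 0.1). SHMT1, which interconverts serine and glycine in the cytosol, rose in MeWo by 0.66 ± 0.22 (adjusted p = 0.0481), a call lost without any single library other than MeWo Dox replicate 2 and SkMel28 control replicate 1 (adjusted p = 0.0526 to 0.145). GPT2, a mitochondrial alanine transaminase, rose there by 0.57 ± 0.18 (adjusted p = 0.0414), a call lost without any single library other than MeWo control replicate 2, MeWo Dox replicate 1 and SkMel28 Dox replicates 1 and 3 (adjusted p = 0.0507 to 0.181).

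The 17 mitochondrial tRNA synthetases had median changes of -0.12 in MeWo and -0.23 in SkMel28, where 2 of them (11.8%) fell, beside 5.04% of all genes. NARS2, for asparagine, fell by 1.27 ± 0.24 (adjusted p = 0.00118) in MeWo and by 0.80 ± 0.24 (adjusted p = 0.0374) in SkMel28, where the call was lost without MeWo control replicate 2 or 3, any single SkMel28 control or SkMel28 Dox replicate 2 or 3 (adjusted p = 0.0514 to 0.164). EARS2 fell in SkMel28 by 0.61 ± 0.19 (adjusted p = 0.0462; lost without any single MeWo control or SkMel28 library, adjusted p = 0.0548 to 0.145). Of 7 subunits of eIF2 and of its exchange factor eIF2B, EIF2B5 rose in MeWo by 0.58 ± 0.19 (adjusted p = 0.045; lost without any single library other than MeWo control replicate 1 and MeWo Dox replicate 1, adjusted p = 0.0555 to 0.212). It was the only 1 of these 7 called there (14.3%, beside 16.7% of all genes). In SkMel28, 0 of these 7 were called by limma, edgeR or DESeq2, with 1 at an unadjusted p under 0.05. Of 5 other genes of the cytosolic synthetase complex, 0 were called in either line by these tools, with 1 at an unadjusted p under 0.05 in MeWo and 2 in SkMel28.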

How the data were processed

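RNA from 12 libraries of MeWo and SkMel28 (3 per group of line and Dox) was measured by 3′ end sequencing. Per the submitters' processing notes, the tools named are FastQC 0.11.7, cutadapt 2.8, STAR 2.5.1b and edgeR, with build hg38. The counter, the annotation and the strand used for counting are not given in the sources used here. The authors deposited 1 table of normalised signal values per gene, which are read counts divided by an effective library size. Whole reads were recovered from its steps, with 100% of values whole within 0.001 read, and gave each library's depth. Columns were mapped to samples by title, and 67 spike-ins were kept out of the 12616 genes tested.

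Groups were compared with limma 3.58.1 (R 4.3.3) on log2(value + 1), in 1 fit over all 12 libraries with a mean-variance trend and Benjamini-Hochberg adjustment over all genes. Dox was set against control within a line, these changes were compared between lines, and SkMel28 control was set against MeWo control. Alternatives were edgeR 4.0.16 and DESeq2 1.42.0 on recovered reads, spike-in and upper-quartile scaling, pseudocounts of 0.1 and 5, a stricter filter, no trend, only the libraries compared, a replicate block, and each library left out. The code was tested on simulated data. Members and lists were chosen with earlier results of these data known. Values in every library are given for members called with Dox or in the difference between lines, for ATF4, and for the 10 members that differed most between uninduced lines. Of each other list at most 3 called genes are named. DDIT3, EIF2AK4, SHMT2 and other members named for their values without MeWo Dox replicate 1, were added after their values were seen. Intervals are standard errors over libraries. Some items are not reported here.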

Additional observations from a re-analysis of the deposited data

Results flagged for a closer look

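In 5 of the 47 members (10.6%, beside 7.09% of all genes) the change with Dox differed between the lines by the test of that difference (limma, 3 libraries a group, log2 scale, MeWo minus SkMel28). GDF15 differed by 1.85 (adjusted p = 6.95e-05), rising in MeWo and falling in SkMel28, and WARS by 0.88 (adjusted p = 0.0142), rising in MeWo. CEBPB differed by -0.69 (adjusted p = 0.0415) and DARS by -0.76 (adjusted p = 0.0444), both falling in MeWo, and ALDH18A1 by -0.91 (adjusted p = 0.0301) with neither line's own change called. CEBPB and DARS each lost the call in 15 of 21 alternatives, among them edgeR (adjusted p = 0.0531 and 0.055) and spike-in scaling (adjusted p = 0.465 and 0.399). ALDH18A1 lost it in 11 of 21, WARS in 1 and GDF15 in 0.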

How the results depend on the processing

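In MeWo the count of 11 called members became 3 with only the libraries compared, and ran from 7 (without control replicate 2) to 19 (without Dox replicate 1) as single libraries were left out. Over all 12616 genes, 2107 were called in MeWo, 813 with only the libraries compared, 1281 without control replicate 2 and 3913 without Dox replicate 1. In SkMel28 the count of 8 became 4 with spike-in scaling and 4 without the mean-variance trend, and ran from 3 to 9 with single libraries left out. There 1378 of all genes were called, 929 with spike-in scaling, 1103 without the trend and 784 to 2042 with single libraries left out. The difference between lines, called for 5 members, was called for 3 by edgeR, 3 with a pseudocount of 0.1 and 1 without the trend, and for 2 to 13 with single libraries left out. Of all genes it was called for 894, against 799, 640 and 554 in those fits and 449 to 3115 with single libraries left out. The 19 called between uninduced lines stayed within 16 to 22 on leaving out a library. Of all genes 6485 were called there, and 5685 to 7145 on leaving out a library. The cause was not tested. No named change reversed a called direction. With the replicate number as a block the counts were 12, 6, 5 and 20, beside 1980, 1191, 820 and 6371 of all genes. ATF5 and ASNS lost the SkMel28 call in that fit (adjusted p = 0.0503 and 0.062). Deviations of same-numbered libraries from their group means correlated at -0.181, -0.0351 and 0.0421 in MeWo and -0.0456, 0.0449 and 0.159 in SkMel28. Those of differently numbered libraries correlated at -0.164 to 0.199 in MeWo and -0.199 to 0.174 in SkMel28. With 3 libraries a group this cannot settle whether equal numbers share a culture or day, and the labels do not say. Spike-in scaling put the median of all genes at 0.224 in MeWo, -0.0787 in SkMel28, 0.297 in their difference and 0.132 between uninduced lines. Fitting only the libraries compared gives no separate value for the difference between lines. Depth limits ATF3, ALDH1L2 and STC2, whose libraries hold few reads.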
